A study of Mus musculus with 6 samples.

Results

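The genes described here encode the proteins of the mitochondrial ribosome, chosen as the protein-coding mouse genes whose symbol is Mrpl or Mrps followed by a number. There were 78 such genes, among 35853 genes of all kinds and 21799 protein-coding genes in the tables, and they lay on 17 chromosomes. They were measured by poly(A) RNA sequencing in blood neutrophils of wild-type BALB/C mice, 4 weeks after 4T1 cells, a mouse mammary carcinoma line, had been implanted orthotopically. Cells with the neutrophil antigen Ly6G on their surface were separated by how much Ly6C they carried, giving 3 Ly6C-high and 3 Ly6C-low libraries. All 6 libraries came from tumour-bearing animals, so both groups share the tumour, the strain, the time point and the Ly6G gate. The labels give neither the age of the mice nor whether replicate libraries are different animals, and the p-values therefore rest on a spread between libraries that may be technical.

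Mitochondria keep ribosomes of their own, descended from those of bacteria, which translate only the few messages that mitochondrial DNA encodes, all of them for subunits of the oxidative phosphorylation complexes. Their RNA comes from mitochondrial DNA, while every protein of the particle is encoded in the nucleus, made in the cytosol and imported. Many of these proteins have counterparts in bacterial ribosomes, and others are found only in mitochondria, where they add to the surface of the particle. Mature neutrophils are known for few mitochondria and a heavy reliance on glycolysis.

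The libraries held between 17192372 and 20973623 estimated counts, and 11406 genes passed the filter on low counts. The sorted cells carried neutrophil transcripts in every library: 9 neutrophil markers summed to between 97440 and 121400 CPM, a library's counts rescaled to a common total with TMM (a factor that levels the bulk of the genes between libraries). The epithelial genes Krt8 and Krt18, looked for because 4T1 cells are epithelial, had 0 counts in all 6 libraries, and Epcam did not exceed 0.317 CPM. Ly6C-low replicate 3 stood apart on the first principal component, at 38.02 where the other 5 libraries lay between -19.65 and 3.91. The counts over the mitochondrial ribosomal proteins and their subunits are also given without it.

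The genes of the mitochondrial ribosome had a median level slightly below that of all genes tested in these neutrophils, and a single one stood far above the rest. On the TPM scale (a share of the library's transcripts that corrects for transcript length and allows genes to be compared) the median over the 78 genes was 5.60. Over the 72 that passed the filter on low counts it was 6.38, beside 7.14 for all 11406 genes tested. There were 24 genes with a mean above 10 TPM, 43 between 1 and 10 and 11 below 1. Mrpl33, which encodes a small large-subunit protein with a bacterial counterpart, had 465, 482 and 521 TPM in the Ly6C-high libraries and 492, 473 and 549 TPM in the Ly6C-low libraries. It alone made up 37.0% of the TPM of all 78 genes, and its level exceeded that of 98.2% of the genes tested. Its standard transcript, Mrpl33-201, held between 88.9% and 90.8% of the gene's TPM in each library, so the level did not rest on other transcripts of the locus.

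Mrps21, a small-subunit protein with a bacterial counterpart, came next, with 133, 115 and 121 TPM in Ly6C-high and 132, 119 and 125 TPM in Ly6C-low. The mean of Mrpl33 was 4.00 times that of Mrps21. Below these stood Mrpl14, a protein of the face of the large subunit that meets the small one, at a mean of 52.8 TPM, Mrps18c at 40.9 TPM and Mrpl10, at the base of the stalk where translation factors bind, at 34.0 TPM. Together these 5 genes made up 55.8% of the TPM of the 78. The values of Mrps18c, between 32.3 and 49.5 TPM, overlapped those of Mrpl10, between 32.4 and 36.2 TPM, so the order of the pair is not resolved by their spread.

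**Figure D1:**
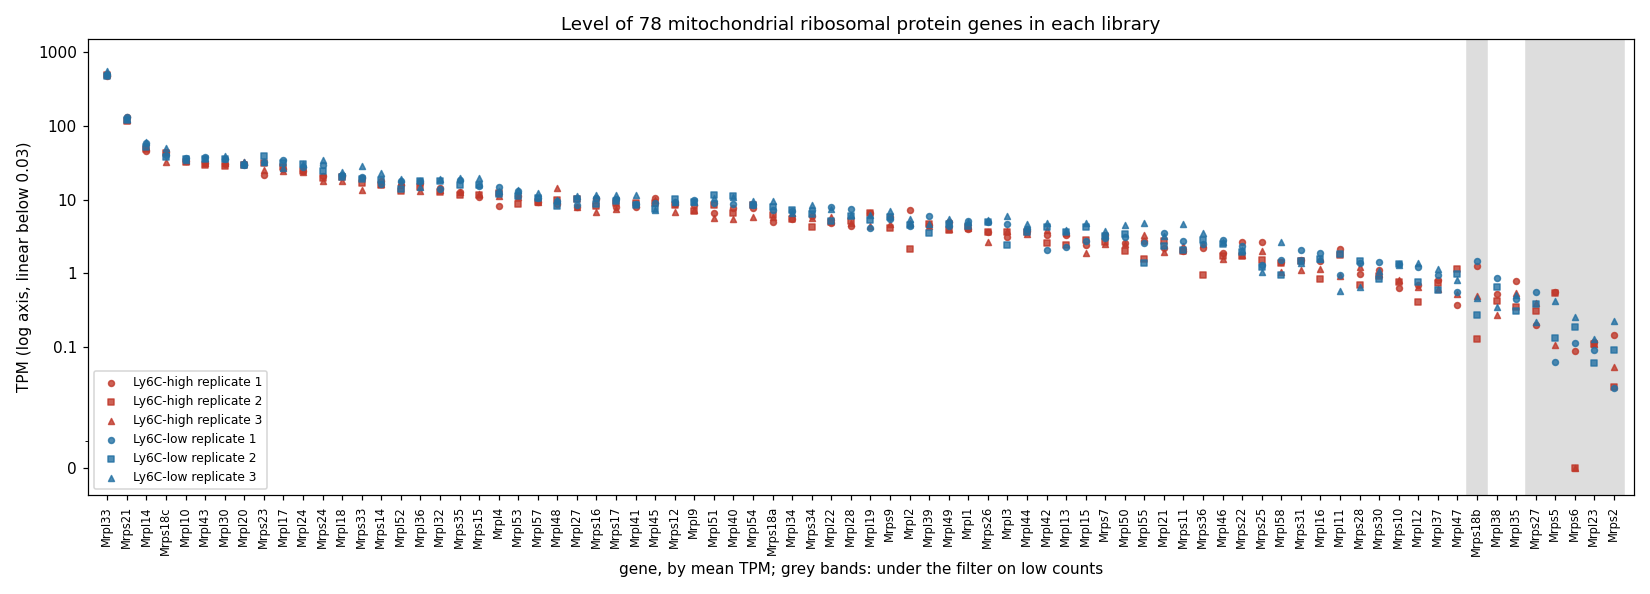
TPM of each of the 78 genes in each of the 6 libraries on a log axis (linear below 0.03), ordered by mean TPM; red marks are Ly6C-high and blue marks Ly6C-low libraries, and grey bands are genes under the filter on low counts. Mrpl33 lies between 465 and 549 TPM, Mrps21 between 115 and 133 TPM, and most genes between 1 and 10 TPM, with red and blue marks close together.

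At the lower end, the tested genes with the lowest means were Mrpl35 at 0.496 TPM, Mrpl38 at 0.522 TPM and Mrpl47 at 0.735 TPM, all of the large subunit. Mrpl38 had between 5 and 18 counts per library, and its 95% interval ran from -1.79 to 0.38 on the log2 scale, so a difference of 2-fold was not resolvable there. A further 6 genes did not pass the filter: Mrps18b, Mrps5, Mrps2, Mrps6 and Mrps27 of the small subunit, and Mrpl23 of the large. Their counts ran from 0 to 17 in any library, and Mrps6 had 0 in Ly6C-high replicates 2 and 3. That left 72 tested genes, 50 of 51 of the large subunit and 21 of 26 of the small. The remaining tested gene, Mrps36, is no longer counted as a ribosomal protein but as an adaptor of the oxoglutarate dehydrogenase complex. It is kept by its name, and its log2 fold change was -0.41 with an interval from -1.29 to 0.47.

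The comparison asked how these transcripts differed between Ly6C-high and Ly6C-low neutrophils of tumour-bearing mice. No single gene of the mitochondrial ribosome passed the threshold, while the genes as a group lay slightly below 0, that is, lower in Ly6C-high. With the edgeR quasi-likelihood test at an adjusted p of 0.05, 0 of the 72 were called, beside 4 of all 11406 genes tested, or 0.0351% (0.0175% in each direction). At an unadjusted p under 0.05 there were 7 of 72, or 9.72%, beside 14.3% of all genes tested, so by that count the genes did not stand out. Of the 7, 5 were lower in Ly6C-high (6.94%, beside 7.34% of all genes) and 2 were higher (2.78%, beside 6.92%). Scaled by library size alone, the same count was 15 lower and 0 higher (20.8% and 0.0%), where all genes shifted the same way, with 14.6% lower and 2.94% higher. With counts rebuilt from TPM and gene length (length-scaled TPM) it was 8 lower and 2 higher of 74. These were 10.8% and 2.7%, beside 6.4% and 5.81% of all genes. Without Ly6C-low replicate 3 it was 5 lower and 0 higher of 74 (6.76% and 0.0%), beside 6.07% and 5.66% of all genes. Without Ly6C-high replicate 2 it was 3 lower and 0 higher of 73 (4.11% and 0.0%), beside 4.60% and 3.82%. Without Ly6C-high replicate 1 or without Ly6C-low replicate 2 it was 4 lower and 0 higher, beside 6.40% and 5.0% of all genes in the former case and 7.08% and 6.50% in the latter. DESeq2 gave an adjusted p to 60 of the 72 and called 0 of these, beside 0.882% of all genes to which it gave one. At an unadjusted p under 0.05 it had 5 of the 72 (6.94%), beside 11.5% of all genes. With limma voom 0 of the 72 were called, beside 0.0263% of all genes, with 7 at an unadjusted p under 0.05 (9.72%, beside 14.2%).

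Most of the fold changes lay on the same side of 0. The fitted log2 fold change of Ly6C-high over Ly6C-low was below 0 for 57 of 72 genes, or 79.2%, beside 50.8% of all genes tested. Its median was -0.17, with quartiles of -0.28 and -0.05, beside a median of -0.00 for all genes, and it ran from -0.78 for Mrpl12, a stalk protein, to 0.45 for Mrpl35. In CPM, the 3 Ly6C-low libraries all lay above the 3 Ly6C-high libraries for 14 genes (19.4%, beside 10.9% of all genes tested), and the reverse held for 4 (5.56%, beside 10.3%). These counts describe the genes and carry no test of the group. Without Ly6C-low replicate 3, 53 of 74 genes tested lay below 0 (71.6%, beside 49.7% of all genes) with a median of -0.14.

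**Figure D2:**
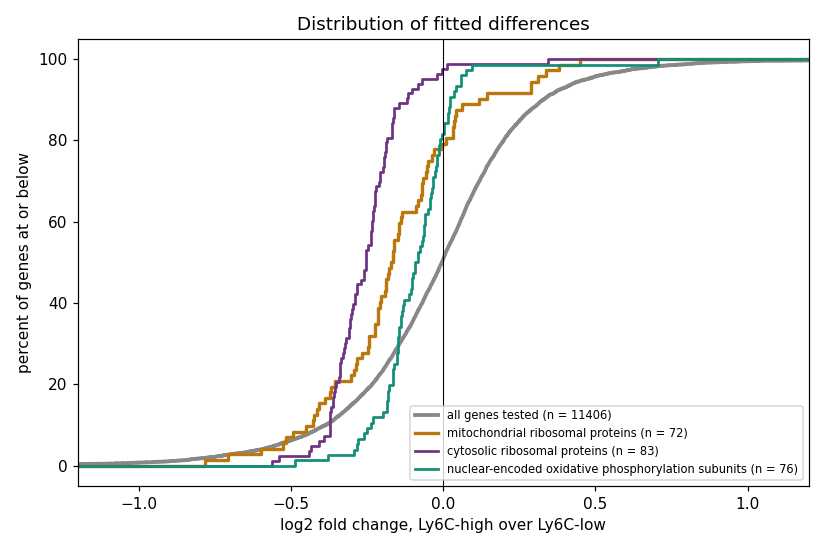
Percent of genes (vertical axis) with a fitted log2 fold change of Ly6C-high over Ly6C-low at or below the value on the horizontal axis, for all 11406 genes tested and for 3 gene lists. The mitochondrial ribosomal protein curve crosses 0 at 79.2% and runs between those of the cytosolic ribosomal proteins and the oxidative phosphorylation subunits over much of its length.

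The size of the differences is bounded better for the abundant genes than for the rare ones. The 95% interval lay wholly within 2-fold in either direction for 60 of the 72 genes (83.3%, beside 78.2% of all genes tested), and within 1.5-fold for 32 (44.4%, beside 53.3%). Among the 34 genes with a mean of at least 5 CPM, all 34 intervals lay within 2-fold and 25 within 1.5-fold, 26 fold changes were below 0, and the median was -0.14. Over all 7261 genes at that level 80.0% of intervals lay within 1.5-fold, 48.2% of fold changes were below 0, and the median was 0.01.

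Summed over the 78 genes, the transcripts came to 687.6, 655.8 and 662.3 CPM in Ly6C-high and 709.2, 670.6 and 727.1 CPM in Ly6C-low. The means were 668.6 ± 16.8 and 702.3 ± 28.9 CPM (SD, n = 3), a ratio of 0.952, and the groups overlapped, since Ly6C-high replicate 1 exceeded Ly6C-low replicate 2. In TPM the sums were 1272, 1252 and 1284 against 1394, 1336 and 1517, a ratio of 0.897, and did not overlap. The sums are weighted towards Mrpl33, whose own fold change was near 0. Without it, the means were 523.7 ± 25.3 and 563.4 ± 19.8 CPM (SD, n = 3), a ratio of 0.929. In bulk samples fewer cells of a type and less RNA per cell cannot be told apart.

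**Figure D3:**
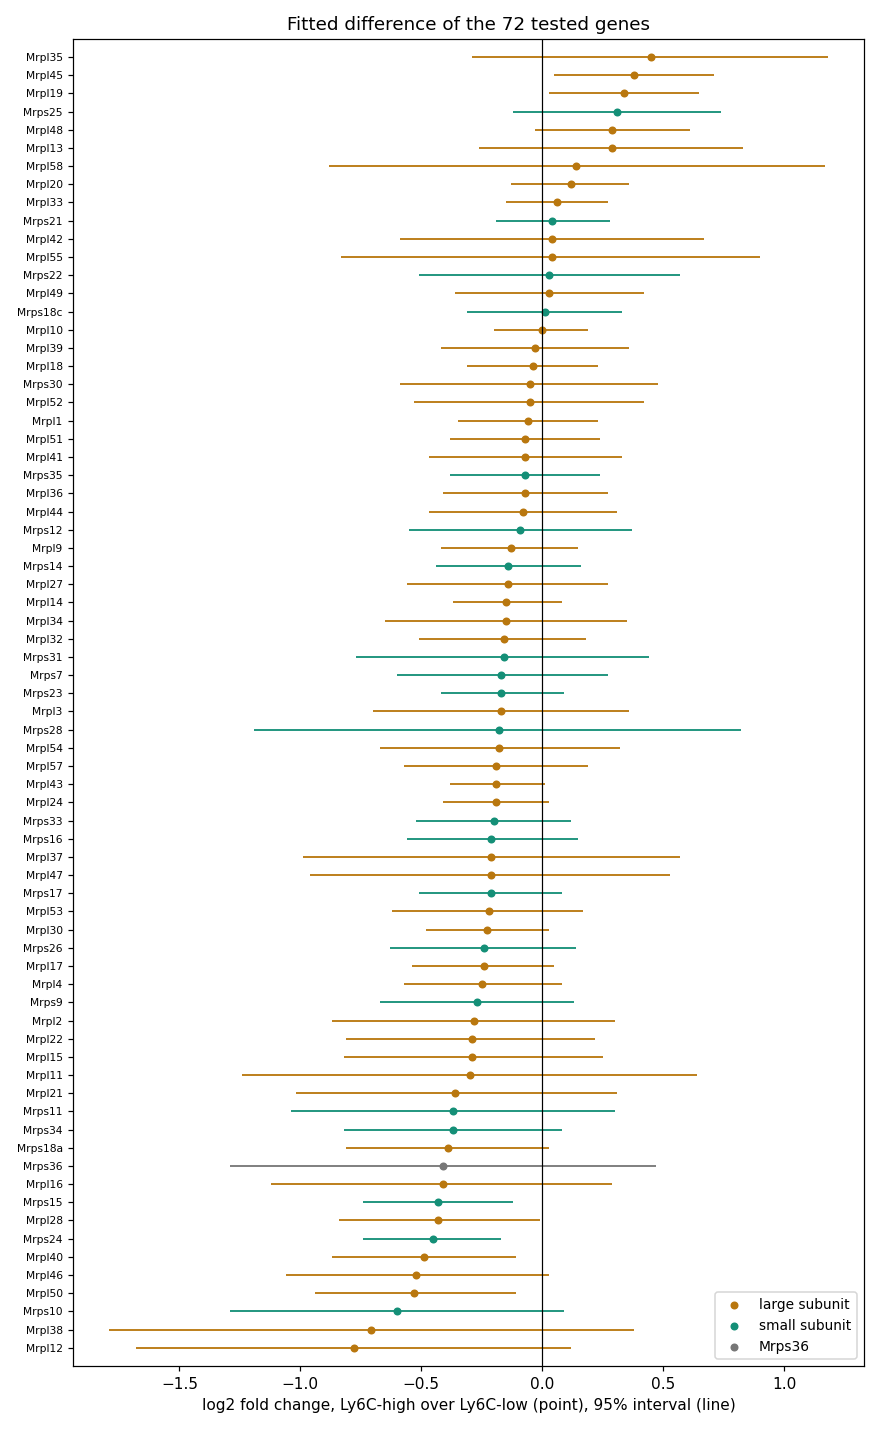
Fitted log2 fold change (point) and 95% interval (line) of the 72 tested genes, ordered by fold change; colour gives the subunit. Most points lie left of 0 and most lines cross it; 7 of the 72 intervals exclude 0.

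In the large subunit, 39 of the 50 tested genes lay below 0, with a median of -0.16. The edgeR test called 0 of them, and 5 had an unadjusted p under 0.05 (3 with DESeq2 and 5 with limma voom), beside 14.3% of all genes tested. Without Ly6C-low replicate 3, 35 of 50 lay below 0 (70.0%, beside 49.7% of all genes). Mrpl40, a protein found in mitochondrial but not bacterial ribosomes, had 5.82, 5.23 and 4.90 CPM in Ly6C-high and 6.09, 8.17 and 8.17 CPM in Ly6C-low. All 3 Ly6C-low libraries were higher, replicate 1 only just so, and the log2 fold change was -0.49 (SE 0.17, edgeR adjusted p = 0.257). Mrpl50, also specific to mitochondria, had 4.87, 3.68 and 4.50 CPM against 5.44, 5.87 and 7.53 CPM, with the highest value in Ly6C-low replicate 3. Its log2 fold change was -0.53 (SE 0.19, edgeR adjusted p = 0.265), and -0.38 without that library. Mrpl28, which has a bacterial counterpart, had 3.33, 3.95 and 3.67 CPM against 5.79, 4.51 and 4.40 CPM. The groups did not overlap, with a log2 fold change of -0.43 (SE 0.19, edgeR adjusted p = 0.344).

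The other large-subunit genes with the smallest p among those lower in Ly6C-high were Mrpl43, Mrpl46 and Mrps18a. Mrpl43 was among the more abundant, at 35.8, 32.6 and 34.0 CPM against 40.3, 37.8 and 38.3 CPM. Its groups did not overlap, yet the difference was small, with a log2 fold change of -0.19 (SE 0.09, edgeR adjusted p = 0.374). Mrpl46 had 1.69, 1.49 and 1.37 CPM against 2.35, 2.04 and 2.12 CPM, again without overlap. The counts behind it were only 28 to 47 per library, and the log2 fold change was -0.52 (SE 0.25, edgeR adjusted p = 0.376).

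Of the 15 genes above 0, 11 were of the large subunit. Mrpl45, specific to mitochondria, sits at the exit of the peptide tunnel and holds the ribosome to the inner membrane. It had 19.6, 19.3 and 18.3 CPM in Ly6C-high and 18.2, 13.6 and 12.0 CPM in Ly6C-low. Ly6C-low replicate 1 almost reached the lowest Ly6C-high library, and the log2 fold change was 0.38 (SE 0.15, edgeR adjusted p = 0.296), or 0.26 without Ly6C-low replicate 3. Mrpl19, with a bacterial counterpart, had 12.4, 13.2 and 11.3 CPM against 11.1, 8.49 and 9.49 CPM, and a log2 fold change of 0.34 (SE 0.14, edgeR adjusted p = 0.321). Mrpl48 had 8.25, 8.32 and 9.99 CPM against 6.99, 7.39 and 7.37 CPM, with no overlap and a log2 fold change of 0.29 (edgeR adjusted p = 0.393). In TPM the groups of Mrpl48 overlapped, at 8.74, 9.88 and 14.2 against 9.45, 8.22 and 9.8. Those of Mrpl19 did too, at 6.68, 6.66 and 4.33 against 4.19, 5.34 and 6.26, while those of Mrpl45 did not.

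Mrpl20, which is placed deep in the RNA of the large subunit, had values of 15.2, 15.2 and 15.3 CPM against 13.9, 13.1 and 15.1 CPM. Its Ly6C-high libraries lay just above all Ly6C-low libraries, with a log2 fold change of 0.12 and an interval from -0.13 to 0.36. In TPM its groups overlapped, at 29.9, 29.8 and 32.5 against 29.8, 29.4 and 32.5. Mrpl13 and Mrpl35 had overlapping groups, with log2 fold changes of 0.29 (interval -0.26 to 0.83) and 0.45 (interval -0.29 to 1.18). The TPM mean of Mrpl13 was lower in Ly6C-high, at 3.09 against 3.28. Mrpl33 itself had 135, 144 and 156 CPM against 136, 130 and 151 CPM. Its groups overlapped, and its log2 fold change was 0.06 with an interval from -0.15 to 0.27, and -0.05 when scaled by library size alone.

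**Figure D4:**
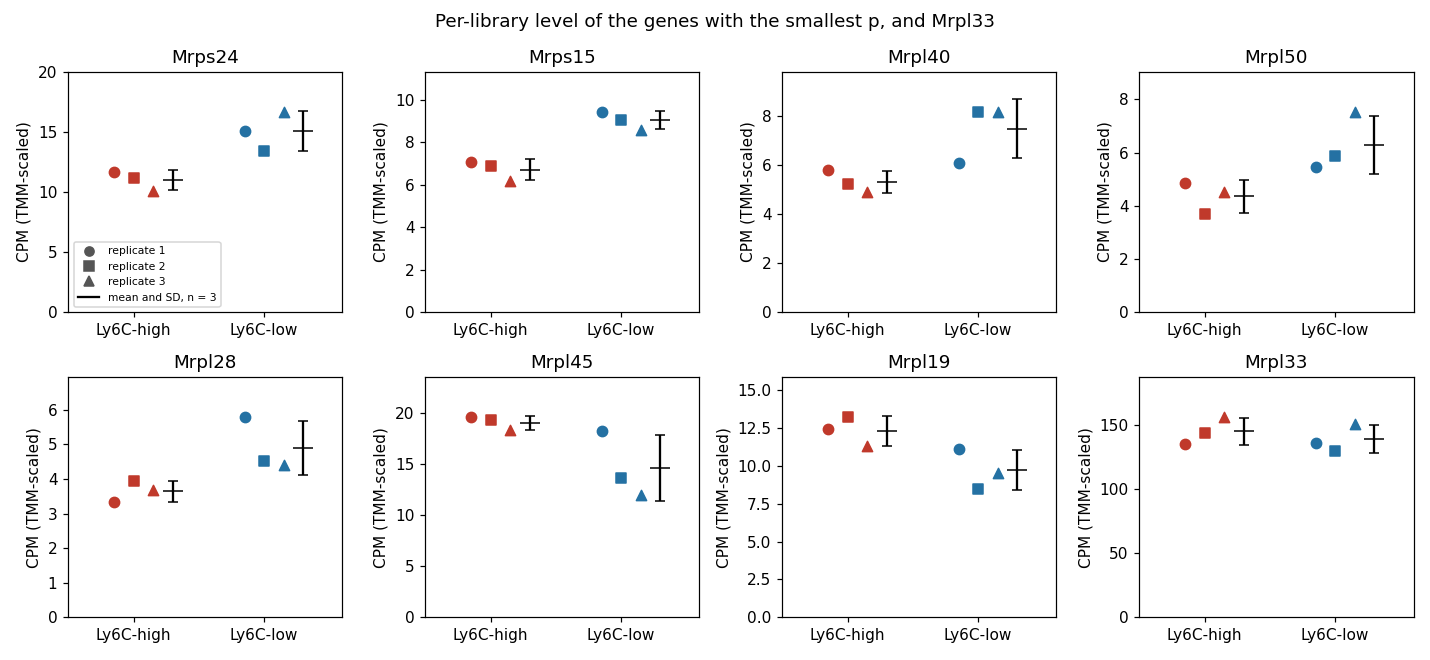
TMM-scaled CPM in each library for the 7 genes with an unadjusted p under 0.05 and for Mrpl33; marks give the replicate number, and the bar beside each group its mean and SD (n = 3). Groups do not overlap for the 7 genes and overlap for Mrpl33, and no gene passed the adjusted threshold.

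In the small subunit, 17 of the 21 tested genes lay below 0, with a median of -0.18. The edgeR test called 0 of them, and 2 had an unadjusted p under 0.05, or 9.52% beside 14.3% of all genes tested. DESeq2 and limma voom also gave 2 each, beside 11.5% and 14.2% of all genes. With length-scaled TPM there were 6 of 23 (26.1%), 5 of them lower (21.7%), beside 12.2% and 6.4% of all genes. Without Ly6C-low replicate 3, 17 of 23 lay below 0 (73.9%, beside 49.7% of all genes). The Ly6C-low libraries lay wholly above the Ly6C-high libraries for 5 of the 21 (23.8%, beside 10.9% of all genes tested), and the reverse held for 0 (0.0%, beside 10.3%). Mrps24, with a bacterial counterpart, had the smallest p of the 72 genes, at 11.7, 11.2 and 10.1 CPM in Ly6C-high and 15.1, 13.4 and 16.7 CPM in Ly6C-low. The groups did not overlap, with means of 11.0 ± 0.817 and 15.1 ± 1.65 CPM (SD, n = 3). The log2 fold change was -0.45 (SE 0.13, edgeR adjusted p = 0.207), and it ran from -0.53 to -0.37 as each library was left out. Mrps15, also with a bacterial counterpart, had 7.09, 6.88 and 6.17 CPM against 9.43, 9.06 and 8.59 CPM. The gap between its groups was wider than the range within either, and the log2 fold change was -0.43 (SE 0.14, edgeR adjusted p = 0.235).

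Among the small-subunit genes above 0, Mrps25 had the smallest p, at 5.45, 4.53 and 5.53 CPM against 3.29, 4.92 and 4.30 CPM. The groups overlapped, and the log2 fold change was 0.31 with an interval from -0.12 to 0.74. Mrps21 did not move by more than its spread, at 31.9, 27.2 and 27.3 CPM against 30.4, 26.9 and 26.7 CPM. Its log2 fold change was 0.04 with an interval from -0.19 to 0.28, and -0.06 when scaled by library size alone. Split by ancestry rather than subunit, the 43 tested genes with a bacterial counterpart had a median of -0.18 and the 28 specific to mitochondria a median of -0.12. No difference between these classes was tested.

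Mammals have 3 paralogs of the bacterial S18 protein, which occupy different places in the particle. Mrps18c, in the place of the bacterial protein, was the most abundant, with 16.2, 15.6 and 12.3 CPM against 13.9, 13.1 and 16.9 CPM. Its groups overlapped, and its log2 fold change was 0.01 with an interval from -0.31 to 0.33, and -0.11 when scaled by library size alone. Mrps18a, which sits in the large subunit in spite of its name, had 3.12, 3.89 and 3.53 CPM against 4.14, 4.40 and 5.25 CPM, with no overlap and a log2 fold change of -0.39 (edgeR adjusted p = 0.388). Mrps18b had 7, 2 and 8 counts against 11, 4 and 6 counts and was not tested. In TPM the means of the paralogs were 40.9 for Mrps18c, 6.93 for Mrps18a and 0.687 for Mrps18b.

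Several of these genes share sequence with others, which limits how reads can be assigned. Of the 78 genes, 17 shared more than 10% of the 31-base words of their transcripts with another gene on the same strand, and 7 more than 10% on the opposite strand only. Mrpl53 shared 84.4%, mainly with Gm42688, so the pair is read as a sum, which was 5.27 ± 0.733 CPM in Ly6C-high and 6.70 ± 0.977 CPM in Ly6C-low (SD, n = 3), with overlapping groups. Mrps25 shared 68.9% on the opposite strand, mainly with Nr2c2, Mrpl19 shared 36.2%, mainly with Gcfc2, and Mrpl43 shared 33.1%, mainly with Twnk. Since it is not given whether reads were counted by strand, the values of these 3 genes may include reads of their antisense neighbours. Mrps24 shared 15.3%, mainly with Urgcp, and Mrps15, Mrpl28 and Mrpl50 shared 0.0%.

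The promoters of the genes are shown for 5 of them that differ in level or direction: the most abundant pair, the genes with the smallest p in each direction, and the paralog Mrps18a. Each stretch runs from 200 bases before to 28 bases after the annotated start, is written 5′ to 3′ along the gene, and comes from RefSeq with its build GRCm38.p6, while the files name GRCm39. Capitals mark matches on either strand to the letters CCGGAAG (the core of sites for ETS factors), ATGGCGG (part of the YY1 site), CGCATGC (part of the site of NRF1, a factor known for nuclear genes of mitochondria) and TATAAA (the TATA box). Each of the 4 motifs can overlap its own reverse complement, and different motifs can share letters at their ends. A match is a description of the letters and not a bound site.
Mrpl33, chr5:31613751-31613978, plus strand: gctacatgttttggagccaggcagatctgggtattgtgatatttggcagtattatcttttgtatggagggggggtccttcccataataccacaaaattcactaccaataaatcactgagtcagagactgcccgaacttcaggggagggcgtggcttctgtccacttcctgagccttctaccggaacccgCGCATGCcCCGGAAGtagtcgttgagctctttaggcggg
Mrps21, chr3:95871487-95871714, minus strand: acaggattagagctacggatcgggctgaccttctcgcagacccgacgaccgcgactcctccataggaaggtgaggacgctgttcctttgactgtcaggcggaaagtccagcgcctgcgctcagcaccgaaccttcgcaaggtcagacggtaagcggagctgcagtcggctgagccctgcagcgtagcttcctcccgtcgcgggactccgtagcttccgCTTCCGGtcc
Mrps24, chr11:5707674-5707901, minus strand: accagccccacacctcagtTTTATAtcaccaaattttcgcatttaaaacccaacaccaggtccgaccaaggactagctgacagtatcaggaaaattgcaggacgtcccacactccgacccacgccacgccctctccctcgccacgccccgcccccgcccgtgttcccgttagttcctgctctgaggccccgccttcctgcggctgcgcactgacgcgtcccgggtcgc
Mrpl45, chr11:97315516-97315743, plus strand: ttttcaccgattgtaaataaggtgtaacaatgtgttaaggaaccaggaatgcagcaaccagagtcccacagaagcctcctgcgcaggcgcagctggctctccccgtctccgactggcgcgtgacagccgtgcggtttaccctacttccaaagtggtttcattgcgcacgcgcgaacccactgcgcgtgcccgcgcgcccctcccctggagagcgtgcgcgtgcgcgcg
Mrps18a, chr17:46110804-46111031, plus strand: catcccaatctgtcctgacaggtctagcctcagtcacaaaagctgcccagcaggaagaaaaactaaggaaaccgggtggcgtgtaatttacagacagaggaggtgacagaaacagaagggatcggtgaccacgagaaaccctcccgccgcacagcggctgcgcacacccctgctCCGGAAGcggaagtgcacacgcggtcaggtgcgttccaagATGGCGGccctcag

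Promoters of 69 of the 78 genes were in the RefSeq table, each 300 bases long. The ETS letters occurred in 26 of the 69 (37.7%), beside 21.1% of the tested genes and 9.93% of all 27025 genes in the table. The YY1 letters occurred in 13 (18.8%, beside 9.54% and 4.69%), and the NRF1 letters in 8 (11.6%, beside 7.33% and 4.01%). The TATA letters occurred in 5 (7.25%, beside 9.26% and 15.7%). Mrpl33 carries an ETS match that begins 3 bases before its start, and an NRF1 match just upstream of it. Mrps21 carries an ETS match after its start, and Mrps18a an ETS match before and a YY1 match after its start. The promoter of Mrps24 holds only the TATA letters, 181 bases before the start and so far from the usual place of a TATA box, and that of Mrpl45 holds none of the 4 motifs. Genes with and without the ETS letters had median log2 fold changes of -0.16 (24 tested genes) and -0.17 (39 tested genes). For the NRF1 letters the medians were -0.13 (7) and -0.17 (56), for the YY1 letters -0.22 (10) and -0.16 (53), and for the TATA letters -0.41 (5) and -0.16 (58), with no test of these differences.

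Some of these genes face a neighbour that is read in the opposite direction from a start close by. Such a neighbour within 500 bases was found for 14 of the 72 tested genes (19.4%), beside 9.82% of the tested protein-coding genes, in the GENCODE M21 annotation. Mrpl49, for example, starts 59 bases from Fau, a cytosolic ribosomal protein gene, and Mrpl32 75 bases from Psma2, a proteasome subunit. Their log2 fold changes were 0.03 beside -0.29 for Fau, and -0.16 beside -0.02 for Psma2. Mrpl40 starts 175 bases from Hira, a histone chaperone, with -0.49 beside -0.07. Mrpl49, Mrpl32 and Mrpl40 with these neighbours were chosen after their values were seen. Mrpl46 and Mrps11, on opposite strands with overlapping promoter stretches in RefSeq, are not among the 14.

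Another 5 proteins of the mitochondrial ribosome carry other names, and all 5 of their genes lay below 0, with a median of -0.21. The edgeR and limma voom tests called 0 of the 5, and 1, Gadd45gip1, had an unadjusted p under 0.05 with edgeR. DESeq2 called 0 of 4 and gave Gadd45gip1 no adjusted p. Gadd45gip1, at the peptide exit, had 0.793, 0.960 and 0.734 CPM in Ly6C-high and 1.30, 1.73 and 1.22 CPM in Ly6C-low. The groups did not overlap, on 15 to 33 counts per library, with a log2 fold change of -0.77 (SE 0.32, edgeR adjusted p = 0.318). Dap3, a GTP-binding protein of the small subunit, had 13.8, 12.5 and 15.3 CPM against 16.4, 14.1 and 22.7 CPM. Its groups overlapped, and its log2 fold change of -0.35 became -0.13 without Ly6C-low replicate 3. Aurkaip1, the most abundant, had means of 29.3 ± 0.743 and 31.3 ± 0.334 CPM (SD, n = 3) and a log2 fold change of -0.09. Ptcd3, a pentatricopeptide protein, and Chchd1 had overlapping groups, with log2 fold changes of -0.21 and -0.09, and that of Chchd1 was 0.02 with the trend with gene length removed.

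The machinery that serves the ribosome gave 0 calls in each of 4 lists with edgeR and limma voom. DESeq2 also called 0 of the genes to which it gave an adjusted p, which were 12 of 16 translation factors, 21 of 26 assembly genes, 12 of 14 synthetases and 17 of 24 genes of transcription and RNA processing. At an unadjusted p under 0.05 with edgeR, beside 14.3% of all genes tested, there were 2 translation factors (12.5%), 3 assembly genes (11.5%), 5 synthetases (35.7%) and 2 genes of transcription and RNA processing (8.33%). Of 17 translation factors and related proteins 16 were tested, 7 below 0, with a median of 0.05. Oxa1l, which inserts the new proteins into the inner membrane, had 24.2, 24.4 and 21.3 CPM against 29.8, 27.6 and 26.7 CPM, a log2 fold change of -0.27 (edgeR adjusted p = 0.290). Tufm, the elongation factor that brings the charged tRNA, had a log2 fold change of -0.38 (edgeR adjusted p = 0.343). For both genes the Ly6C-low libraries all lay above the Ly6C-high libraries.

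Of 32 genes for assembly of the ribosome and modification of its RNA 26 were tested, 16 below 0, with a median of -0.02. Mpv17l2, an assembly factor of the large subunit, had a log2 fold change of -0.55 (edgeR adjusted p = 0.291), and Ndufab1, the mitochondrial acyl carrier protein, one of -0.46 (edgeR adjusted p = 0.291). Of 22 mitochondrial aminoacyl-tRNA synthetases, which charge tRNAs with amino acids, 14 were tested, 12 below 0, with a median of -0.30. Kars, which serves both the cytosol and mitochondria, had 9.10, 10.8 and 9.79 CPM against 12.2, 12.7 and 15.5 CPM, a log2 fold change of -0.45 (edgeR adjusted p = 0.220). Hars2, the mitochondrial histidyl-tRNA synthetase, had a log2 fold change of -0.35 (edgeR adjusted p = 0.254). Of the 5 synthetase genes with an unadjusted p under 0.05, Lars2 ran the other way. Chosen once its values had been seen, it had 6950, 2510 and 6740 CPM against 1940, 541 and 1810 CPM, with libraries of a group differing by more than 2-fold.

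Of 25 genes for transcription and RNA processing in mitochondria 24 were tested, 17 below 0, with a median of -0.10. Elac2, which trims the 3′ ends of tRNAs, had 2.17, 1.76 and 2.06 CPM against 3.74, 3.41 and 4.99 CPM. Its log2 fold change of -1.02 (SE 0.23, edgeR adjusted p = 0.172) did not pass the threshold, although its groups did not overlap. Tfam, which packages mitochondrial DNA and starts its transcription, had a log2 fold change of -0.52 (edgeR adjusted p = 0.311), and -0.27 without Ly6C-low replicate 3.

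The proteins of the cytosolic ribosome and the nuclear-encoded subunits of oxidative phosphorylation were set beside the mitochondrial ribosome. Of 83 tested cytosolic ribosomal protein genes 81 lay below 0, with a median of -0.25, and of 76 tested oxidative phosphorylation genes 62 lay below 0, with a median of -0.09. The 13 messages of mitochondrial DNA, which the mitochondrial ribosome translates, all lay above 0, with a median of 0.24. With edgeR 0 genes of these 3 lists passed the threshold, although with no filter on low counts 14 of 84 cytosolic ribosomal proteins did, all lower in Ly6C-high. Of all 20580 genes fitted without the filter 439 passed, 213 of them lower. At an unadjusted p under 0.05 there were 46 of the cytosolic list (55.4%), 5 of the oxidative phosphorylation list (6.58%) and 3 of the mitochondrial messages (23.1%), beside 14.3% of all genes tested. The 46 became 19 when Ly6C-high replicate 2 was left out, 26 when Ly6C-high replicate 3 was, 32 when Ly6C-low replicate 3 was, and 22 with the trend with gene length removed. The 5 of the oxidative phosphorylation list became 2 without Ly6C-high replicate 2 (2.63%) and 3 without Ly6C-high or Ly6C-low replicate 3 (3.95% each). With the trend with gene length removed there was 1 (1.32%), and with library size alone 25 (32.9%, beside 17.5% of all genes). No difference between the lists and the mitochondrial ribosomal proteins was tested.

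By library, the mean deviation of the 72 genes from their own average was 0.02, -0.16 and -0.09 (log2 CPM) in Ly6C-high and 0.10, -0.01 and 0.14 in Ly6C-low. The groups overlapped, since Ly6C-high replicate 1 lay above Ly6C-low replicate 2. Of the 72 genes, 56 had their highest value in a Ly6C-low library, 29 of them in replicate 3 and 21 in replicate 1. That count was not made over all genes tested, so it cannot be read as particular to the 72. The cytosolic ribosomal proteins followed a like order, at -0.01, -0.21 and -0.17 against 0.11, 0.01 and 0.26. The messages of mitochondrial DNA had 0.40, 0.15 and 0.05 against 0.07, -0.18 and -0.49, and were lowest in Ly6C-low replicate 3.

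**Figure D5:**
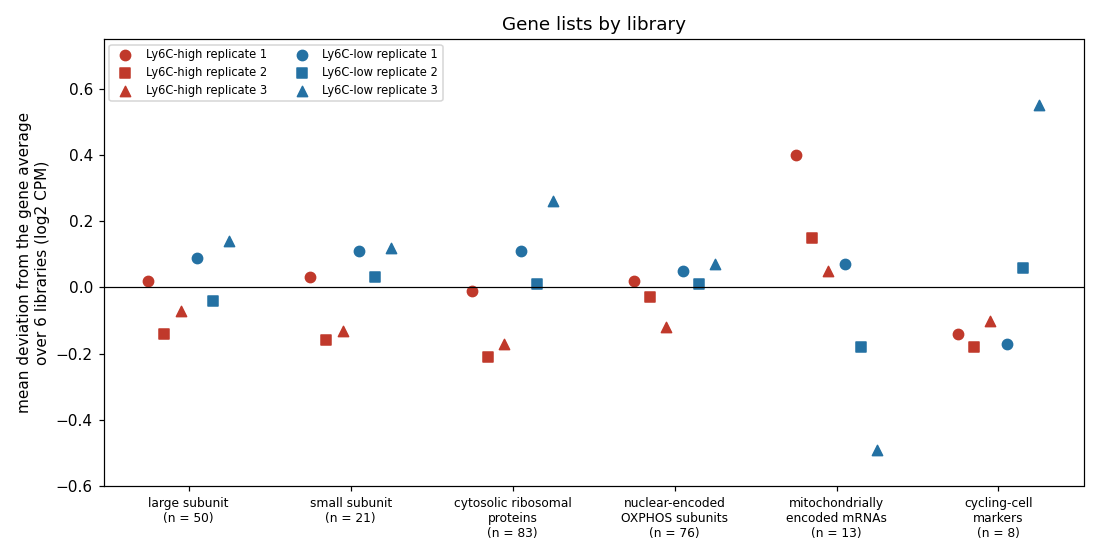
Mean deviation of 6 gene lists from each gene's average over the 6 libraries, in log2 CPM; red marks are Ly6C-high and blue marks Ly6C-low libraries, and n is the number of genes tested. Both subunits of the mitochondrial ribosome lie highest in Ly6C-low replicates 1 and 3, and the cycling-cell markers reach 0.55 in Ly6C-low replicate 3.

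Marker lists also differed between the libraries, in both directions. Of all genes tested 14.3% had an unadjusted p under 0.05 with edgeR. By list that share was 22.2% for neutrophil, 75.0% for monocyte, 12.5% for cycling-cell, 50.0% for basophil and mast cell and 60.0% for eosinophil markers. DESeq2 called 0.882% of all genes to which it gave an adjusted p. Of the 9 neutrophil markers 8 lay above 0, with a median of 0.21, 2 at an unadjusted p under 0.05 and 0 called, and they summed to between 115600 and 121400 CPM in Ly6C-high and between 97440 and 109000 CPM in Ly6C-low. Of 6 monocyte markers 4 were tested and 0 called, with a median of 0.74. Ccr2, F13a1 and Cx3cr1 were higher in all 3 Ly6C-high libraries, each at an unadjusted p under 0.05, while Csf1r, at 340 to 343 CPM against 354 to 423 CPM, ran the other way and set the sums, between 353.6 and 360.6 CPM against 359.5 and 433.7 CPM. The 8 markers of cycling cells, all tested, with 0 called by edgeR and 1 at an unadjusted p under 0.05, had a mean deviation of 0.55 in Ly6C-low replicate 3 and between -0.18 and 0.06 elsewhere, and summed to between 30.0 and 38.1 CPM in Ly6C-high and between 29.4 and 52.6 CPM in Ly6C-low. Of 7 basophil and mast cell markers 6 were tested and 0 called by edgeR, 3 having an unadjusted p under 0.05, while DESeq2 called 1, Mcpt8. They summed to between 75.5 and 135.6 CPM in Ly6C-high and between 142.9 and 234.5 CPM in Ly6C-low, most of it from Kit, and their mean deviation was highest in Ly6C-low replicate 3, at 1.66. Of 8 eosinophil markers 5 were tested and 0 called by edgeR, again with 3 at an unadjusted p under 0.05, while DESeq2 called 1, Ccr3, with sums between 36.2 and 49.0 CPM against 59.6 and 65.7 CPM. The eosinophil granule genes Prg2 and Epx were at 0 in all 3 Ly6C-high libraries, and Epx was at 0 in 2 of the 3 Ly6C-low libraries. The part of these cells in the levels of the mitochondrial ribosomal proteins was not tested.

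Transcript length also moved with the values. The tested genes of the mitochondrial ribosome had a median effective length of 776 bases, beside 2085 for all genes tested. With each library's trend with gene length removed, 49 of 72 genes, or 68.1%, lay below 0 with a median of -0.10, beside 48.6% and 0.01 for all genes, and 0 passed the threshold. The oxidative phosphorylation subunits, with a median of 465 bases, then had 53.9% below 0, and the cytosolic ribosomal proteins 94.0%.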

How the data were processed

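Poly(A) RNA of 6 libraries, 3 Ly6C-high and 3 Ly6C-low, was sequenced with a strand-marking kit, per the labels' protocols. The authors quantified it with kallisto on GRCm39, per the submitters' processing notes. Its version, index and strand setting: not given in the sources used here. The deposited tables give estimated counts, TPM and effective lengths for 117486 transcripts each, per the file headers. Transcripts were assigned to genes with GENCODE M21 (GRCm38, used for names, biotypes, chromosomes, neighbours and transcript sequences), which matched 99.04% of them. Unmatched transcripts were left out. Estimated counts and TPM were summed per gene, and the counts were rounded.

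edgeR 4.0.16 in R 4.3.3 was used with filterByExpr, TMM, robust dispersion estimates and the quasi-likelihood test for group alone, and p-values were Benjamini-Hochberg adjusted over all 11406 genes tested. Fold changes divide Ly6C-high by Ly6C-low, and intervals (95%) cover the spread between libraries, with a common coefficient of variation of 13.7%. Libraries differed from each other by more than sampling noise (chi-square per gene 14.3 to 48.2). Alternatives were DESeq2 1.42.0 (size factors and test), limma 3.58.1 voom, library size alone, no filter, a mean count of at least 10, length-scaled TPM, removal of length or GC trends, protein-coding genes alone, a replicate block and each library left out.

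The genes and lists were chosen with earlier results of these data known. Genes named with values were the 8 with the smallest p in each direction, the 5 highest and 3 lowest by TPM, the Mrps18 paralogs, the untested genes, the other-named proteins and, per pathway list, the 2 with the smallest p. Genes outside this rule are said to be so where named, apart from markers and a few others. These are Mrpl12, Mrpl53, Mrpl23, Mrps36 and Mrps11, which are named for a range, a shared sequence, a count, a class or a promoter overlap.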

Additional observations from a re-analysis of the deposited data

How the results depend on the processing

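The count of 0 mitochondrial ribosomal protein genes past the threshold held in all 17 alternatives (the DESeq2 test gave 12 of the 72 no adjusted p), and so did a median fold change below 0. Leaving out each library in turn gave medians between -0.21 and -0.12 and shares below 0 between 71.6% and 85.1%. Scaled by library size alone the median was -0.28, where that of all genes was -0.11, and 88.9% lay below 0, beside 68.1% of all genes. The count of all genes called, 4, was 8 with library size alone (2 higher and 6 lower, where it had been 2 and 2), 439 with no filter, 2 with length-scaled TPM, 83 with the DESeq2 test and between 2 and 22 as each library was left out, the 22 without Ly6C-low replicate 3. Whether the replicate numbers pair the samples is not given and was not resolved. The same-numbered libraries' deviations correlated at 0.24, -0.04 and 0.24, and those of the other pairs at between -0.31 and 0.11. With the replicate number as a block 61 genes were called, 0 of them mitochondrial ribosomal proteins, whose median was -0.16, and the block gave Lars2 an edgeR adjusted p of 1.62e-06. Over 35 named genes and 17 alternatives, 576 of 595 values kept their direction and, where an adjusted p was given, their side of the threshold. The other values were those of genes near 0 and of Elac2, called with no filter at -1.03 (edgeR adjusted p = 0.00783). Mrpl10, at -0.005, was 0.004 with DESeq2 size factors, 0.029 with the length trend and 0.027 with the GC trend removed. With library size alone Mrpl33 was -0.049, Mrps21 -0.064 and Mrps18c -0.106, and Mrps18c was -0.002 with no filter. Chchd1 was 0.018 with the length trend removed. As each library was left out, Mrpl10 ran from -0.047 to 0.026, Mrps21 from -0.038 to 0.101, Mrps18c from -0.066 to 0.126 and Chchd1 from -0.206 to 0.046. The cause of these changes was not tested. Depth limits the rarest genes: Mrpl12 had 8 to 25 counts per library, and its interval ran from -1.68 to 0.12.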
